A study of Mus musculus with 2 samples.

Results

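The genes of sterol and isoprenoid synthesis and of its control by SREBP (sterol regulatory element-binding protein) were followed in the adrenal glands of newborn mice. They were chosen by name, as the 31 members of a fixed list whose Ensembl identifiers were looked up in the deposited gene tables, and all 31 were found among 43346 Ensembl genes. Of these, 21 are enzymes and 10 take part in control, and further enzymes of the pathway were not analysed here. The mice were of strain B6NCrl at postnatal day 0, with no genotype, treatment or second time point, and total RNA was sequenced from 2 libraries. Each library held both adrenals of 1 pup, pup 2 and pup 1, and the labels tie both pups to the same pregnant animal. Each library started from 10 ng of RNA with added spike-ins, and the labels record no sex for either pup.

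There is 1 group and no contrast of conditions, and the questions are how high each gene stands and how far apart the pups are. Levels are TPM (a transcript abundance per length, scaled to a fixed total, that lets genes be compared within a library), with the mean ± SD over the pups (n = 2). Differences are log2 ratios, pup 2 over pup 1, of counts scaled by TMM (trimmed mean of M-values). Each has a 95% binomial interval that covers counting error only, not the spread between animals or preparations. The reads carry no molecular identifiers, so copies of 1 molecule were not told apart. Since each pup is 1 library, a difference between them could not be checked on replicates and carries no p-value. Depth came to 40800539 estimated counts for pup 2 against 41510071 for pup 1, with members between 318 (Pdss1, pup 2) and 10434 (Dhcr7, pup 2) counts. Over the 18670 genes that averaged 10 counts or more, the biological coefficient of variation between the pups was 33.6%.

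Animal cells build every isoprenoid and sterol from acetyl-CoA. Acetyl-CoA is converted through mevalonate to activated isoprene units, these are joined to prenyl diphosphates, and farnesyl diphosphate is either used for prenylation, dolichol and ubiquinone or coupled to squalene, which is cyclised to lanosterol and trimmed to cholesterol. When membrane cholesterol is low, the escort protein SCAP carries SREBP from the endoplasmic reticulum to the Golgi, where a pair of proteases releases its transcription factor part; when sterols are plentiful, INSIG proteins hold SCAP back. In the adrenal cortex cholesterol is the precursor of all steroid hormones, and it is obtained by synthesis as well as by uptake of lipoprotein cholesterol. In a whole gland, fewer cells of a type and less RNA per cell cannot be told apart.

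The labelled tissue was checked against marker lists. All 8 markers of the steroidogenic cortex and all 7 of chromaffin cells were at 1 TPM or more in both pups. Summed over the list, cortex markers reached 17787 TPM in pup 2 against 6639 TPM in pup 1, and chromaffin markers 3515 TPM in pup 2 against 1487 TPM in pup 1. The 6 markers of sympathetic neurons summed to 368 TPM in pup 2 against 1144 TPM in pup 1, and the 8 of hepatocytes to 1663 TPM in pup 2 against 2195 TPM in pup 1. The 4 markers of stomach and oesophagus summed to 4.95 TPM in pup 2 against 123 TPM in pup 1, with Gkn1 at 0 in pup 2. The glands of the 2 pups thus differed in the levels of other tissues' markers as well as in those of the cortex, and the part of this in the differences between the pups given below was not tested.

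Promoters of the members are shown first, because SREBP acts with partner factors at short motifs in such regions. RefSeq start sites (build GRCm38.p6, the same coordinates as mm10) were available for 27 of the 31 members, in 37 windows that run from 250 bases before to 50 bases after a start. The other 4 are Fdps, Fdft1, Sqle and Erlin2. Both strands were searched for the sterol regulatory element consensus TCACNCCAC, the E-box CACGTG, the NF-Y box CCAAT and the GC box GGGCGG, none of which contains another. The 200 bases before the start of Hmgcs1, Mvk and Sc5d are printed 5′ to 3′ on the strand of the gene, with every match in capitals, a match on the other strand appearing as its reverse complement. They show the single sterol regulatory element match among the members' windows, the window with the most NF-Y boxes, and an E-box.
Hmgcs1, chr13:119690151-119690350, plus strand: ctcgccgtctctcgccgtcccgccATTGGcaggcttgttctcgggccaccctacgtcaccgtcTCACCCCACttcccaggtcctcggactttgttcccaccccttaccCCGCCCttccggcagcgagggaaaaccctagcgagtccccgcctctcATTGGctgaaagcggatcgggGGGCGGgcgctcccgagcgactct
Mvk, chr5:114444069-114444268, plus strand: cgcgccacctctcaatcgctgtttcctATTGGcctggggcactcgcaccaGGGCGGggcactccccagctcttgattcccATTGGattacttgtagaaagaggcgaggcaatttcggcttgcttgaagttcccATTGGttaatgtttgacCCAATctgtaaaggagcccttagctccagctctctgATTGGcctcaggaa
Sc5d, chr9:42264301-42264500, minus strand: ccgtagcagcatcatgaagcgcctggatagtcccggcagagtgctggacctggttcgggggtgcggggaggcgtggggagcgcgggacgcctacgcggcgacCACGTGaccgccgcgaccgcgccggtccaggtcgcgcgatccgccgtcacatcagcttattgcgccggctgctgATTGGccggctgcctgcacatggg

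The Hmgcs1 window held the only match to the sterol regulatory element consensus, from base -137 to base -129 counted from the start at 0. It was 1 of 37 member windows, 2.70%, against 1.24% of all 32851 windows in the table and 1.19% of the 21262 windows of protein-coding genes. The Mvk window held 5 CCAAT matches, all within the bases printed, and CCAAT was found in 25 of 37 member windows (67.6%), against 37.4% of all windows and 38.2% of those of protein-coding genes. With 1 window per member, the one nearest to the start of its most abundant transcript, 20 of 27 members held CCAAT in 43 matches. Of these matches, 28 in 17 members began 120 to 1 bases before the start. The counts with 1 window per member and by position were made for the members only. Whether they differ from those of other genes was not tested. GGGCGG was found in 29 member windows (78.4%), against 35.7% of all windows and 46.2% of those of protein-coding genes. CACGTG was found in 8 (21.6%), against 7.15% of all windows and 7.84% of those of protein-coding genes. The median GC content was 62.3% in the member windows, 52.7% in all windows and 56.3% in those of protein-coding genes, and windows of 1 gene can share bases. A match is a run of letters and was not tested as a binding site.

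**Figure D1:**
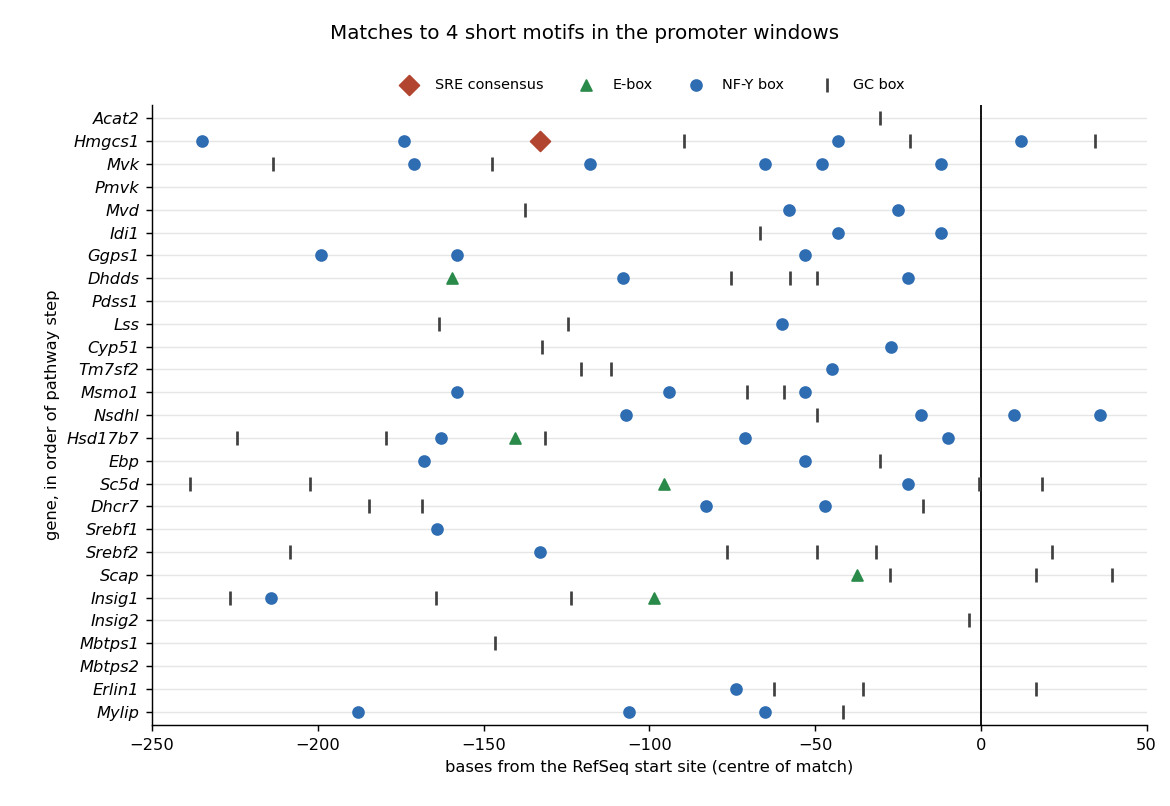
Matches to 4 short motifs in the promoter windows of 27 members, 1 window per member, by the distance of the centre of the match from the RefSeq start site in bases (start at 0). Each symbol is 1 match. Hmgcs1 holds the only sterol regulatory element consensus (SRE), and of the 43 NF-Y boxes, 28 begin in the last 120 bases before the start. Positions were counted for the members only, not for other genes.

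All 31 members were expressed in both pups, none below 5 TPM in either. The lowest mean was that of Mylip, which codes for a ubiquitin ligase for lipoprotein receptors, at 6.01 TPM in pup 2 against 6.2 TPM in pup 1. The highest was that of Fdps (farnesyl diphosphate synthase, chr3:89093588-89101959, minus strand, mm10), at 141 TPM in pup 2 against 104 TPM in pup 1, a 20.1-fold higher mean. Of the protein-coding genes of the nuclear genome, 95.3% lay below the mean of Fdps and 56.9% below that of Mylip. The order of the levels was much the same in both pups. Of 465 pairs of members, 411 had the same order in pup 2 and in pup 1, and in 377 the values of the pups did not overlap. Among the 30 pairs of neighbours in the order of mean TPM, only 4 were separated beyond the spread of the pups (Msmo1 over Mbtps1, Mvk over Tm7sf2, Tm7sf2 over Nsdhl, and Mvd over Lss).

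**Figure D2:**
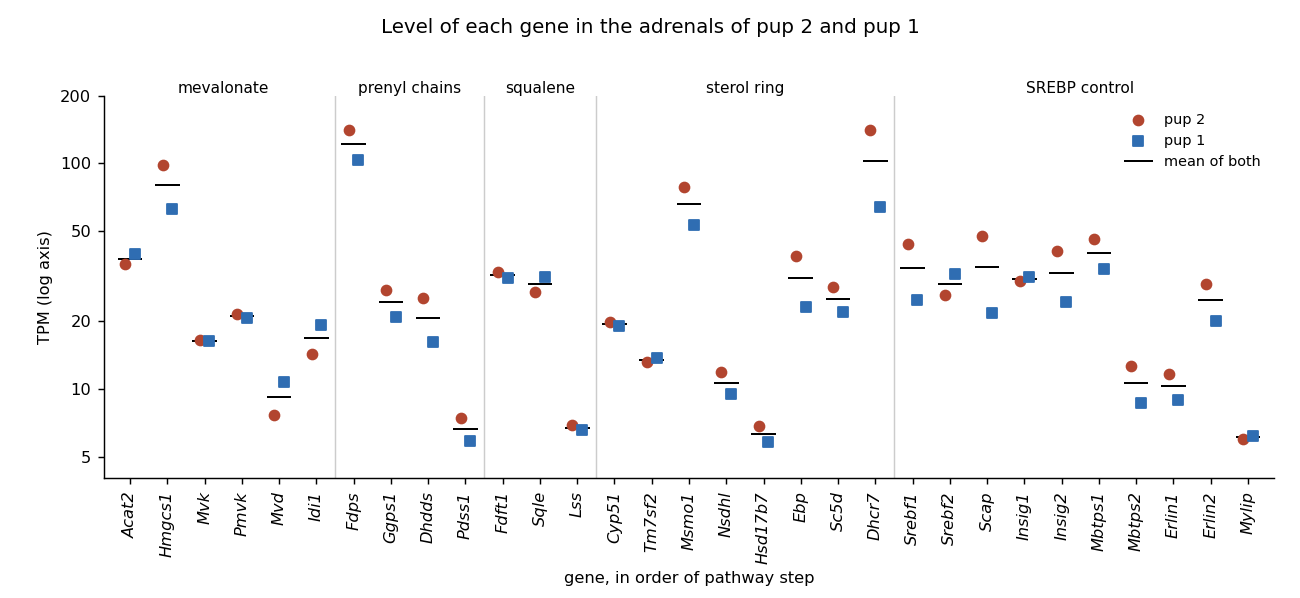
TPM of the 31 genes (log axis) in pup 2 (circles) and pup 1 (squares), with the mean of both as a bar, in the order of the pathway. Fdps, Dhcr7, Hmgcs1 and Msmo1 have the highest means, and Mylip, Hsd17b7, Pdss1 and Lss the lowest.

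The 6 enzymes from acetyl-CoA to activated isoprene units summed to 194 TPM in pup 2 against 169 TPM in pup 1. By summed TMM-scaled counts they were slightly lower in pup 2, with a log2 ratio of -0.11. Hmgcs1, the cytosolic HMG-CoA synthase, carried much of the summed TPM at 98.4 TPM in pup 2 against 62.9 TPM in pup 1. Acat2, the cytosolic thiolase that makes acetoacetyl-CoA, followed at 35.8 TPM in pup 2 against 39.6 TPM in pup 1. Both kinases of the step stood lower, and their TPM values were close in the pups. Mvk, mevalonate kinase, was at 16.4 TPM in pup 2 against 16.3 TPM in pup 1, and Pmvk, phosphomevalonate kinase, at 21.6 TPM in pup 2 against 20.5 TPM in pup 1. By TMM-scaled counts both were lower in pup 2, with log2 ratios of -0.32 (95% interval -0.46 to -0.18) for Mvk and -0.33 (-0.47 to -0.19) for Pmvk. Mvd, the decarboxylase that makes isopentenyl diphosphate, was the lowest of the group at 7.64 TPM in pup 2 against 10.7 TPM in pup 1. Idi1, which isomerises isopentenyl diphosphate, was at 14.2 TPM in pup 2 against 19.3 TPM in pup 1. Acat2, Mvd and Idi1 were thus lower in pup 2 by TPM, and Hmgcs1 was higher.

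Among the 4 genes that lengthen prenyl chains, Fdps stood far above the others in both pups. Ggps1, which makes geranylgeranyl diphosphate, was at 27.4 TPM in pup 2 against 20.9 TPM in pup 1, so that the quotient of Fdps over Ggps1 was 5.16 in pup 2 and 4.95 in pup 1. Dhdds, a subunit of the enzyme that makes the dolichol chain, was at 25.2 TPM in pup 2 against 16.2 TPM in pup 1. Pdss1, a subunit of the enzyme that makes the side chain of ubiquinone, was at 7.41 TPM in pup 2 against 5.89 TPM in pup 1. All 4 were higher in pup 2 by TPM, as were 72.2% of all genes tested, while by TMM-scaled counts Pdss1 had a log2 ratio of -0.18 (95% interval -0.41 to 0.04) and Ggps1 one of 0.01 (-0.09 to 0.10). Of the 3 squalene genes, the synthase Fdft1 and the epoxidase Sqle were near each other, Fdft1 at 32.8 TPM in pup 2 against 30.9 TPM in pup 1 and Sqle at 26.8 TPM in pup 2 against 31.4 TPM in pup 1. Lss, which cyclises the epoxide to lanosterol, stood several-fold lower at 6.91 TPM in pup 2 against 6.54 TPM in pup 1.

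The 8 genes that turn lanosterol into cholesterol summed to 339 TPM in pup 2 against 211 TPM in pup 1, and Dhcr7 and Msmo1 led them. The log2 ratio of their summed TMM-scaled counts was 0.31. Dhcr7, the reductase that acts on the direct precursor of cholesterol, was at 141 TPM in pup 2 against 64.0 TPM in pup 1. Msmo1, an oxidase in the removal of methyl groups, was at 79.0 TPM in pup 2 against 53.6 TPM in pup 1. The partners of Msmo1 in that removal stood several-fold lower. Nsdhl, the dehydrogenase, was at 11.9 TPM in pup 2 against 9.44 TPM in pup 1, and Hsd17b7, the ketoreductase, at 6.82 TPM in pup 2 against 5.80 TPM in pup 1. Cyp51, the lanosterol demethylase, was at 19.8 TPM in pup 2 against 19.1 TPM in pup 1, and Tm7sf2, a sterol reductase, at 13.1 TPM in pup 2 against 13.7 TPM in pup 1. These 2 differed little between the pups by TPM. Ebp, a sterol isomerase, was at 38.9 TPM in pup 2 against 23.2 TPM in pup 1, and Sc5d, a sterol desaturase, at 28.4 TPM in pup 2 against 21.8 TPM in pup 1.

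Over all 21 enzymes the sum was 801 TPM in pup 2 against 595 TPM in pup 1 (698 ± 145 TPM, SD, n = 2). By summed TMM-scaled counts the enzymes were nearly equal in the pups, with a log2 ratio of 0.04. The 4 most abundant, Fdps, Dhcr7, Hmgcs1 and Msmo1, held 57.4% of the summed TPM in pup 2 and 47.7% in pup 1. Shares within a library need no scaling between libraries. The share of Fdps was 17.7% in pup 2 and 17.4% in pup 1, whereas that of Dhcr7 was 17.6% in pup 2 and 10.7% in pup 1. Sqle held 3.34% in pup 2 and 5.27% in pup 1, and Acat2 4.47% in pup 2 and 6.65% in pup 1. In percentage points the share of Dhcr7 differed most between the pups (14.2 ± 4.84%, SD, n = 2), while that of Mvd, at 0.954% in pup 2 and 1.80% in pup 1, differed by a larger factor.

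The 10 control genes summed to 295 TPM in pup 2 against 212 TPM in pup 1, while the log2 ratio of their summed TMM-scaled counts was 0.04. Srebf1 codes for the SREBP-1 forms, known for genes of fatty acid synthesis, and Srebf2 for SREBP-2, known for genes of cholesterol synthesis. Srebf1 was at 44.1 TPM in pup 2 against 24.8 TPM in pup 1, and Srebf2 at 26.1 TPM in pup 2 against 32.3 TPM in pup 1. The quotient of Srebf1 over Srebf2 lay above 1 in pup 2 (1.69) and below 1 in pup 1 (0.77). The value above 1 rests on non-coding transcripts of Srebf1, most of it a single short one, since with protein-coding transcripts alone the quotient was 0.89 in pup 2 and 0.40 in pup 1, below 1 in both. Scap, the escort, was at 47.7 TPM in pup 2 against 21.6 TPM in pup 1. Insig1, the anchor whose gene is itself a target of SREBP, was at 30.2 TPM in pup 2 against 31.4 TPM in pup 1, and Insig2, the other anchor, at 40.99 TPM in pup 2 against 24.3 TPM in pup 1. The quotient of Insig2 over Insig1 was 1.36 in pup 2 and 0.77 in pup 1, so the order of the anchors was also opposite in the pups.

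The 2 proteases and the 2 erlins each kept the order within their pair in both pups. Mbtps1, which codes for the protease that makes the first cut in SREBP, was at 46.2 TPM in pup 2 against 33.95 TPM in pup 1. Mbtps2, which codes for the protease of the second cut, was at 12.6 TPM in pup 2 against 8.62 TPM in pup 1. The quotient of the proteases was 3.67 in pup 2 and 3.94 in pup 1. Erlin1 and Erlin2 code for membrane proteins of the endoplasmic reticulum that take part in sterol-dependent degradation. Erlin2 was at 29.3 TPM in pup 2 against 20.1 TPM in pup 1, and Erlin1 at 11.7 TPM in pup 2 against 8.88 TPM in pup 1, with a quotient of Erlin2 over Erlin1 of 2.52 in pup 2 and 2.26 in pup 1.

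Of the 31 members, 10 had a single transcript in the deposited tables and 21 had several, 149 transcripts in all. The most abundant transcript was the same in both pups for 20 of these 21. In 11 of the 21, protein-coding transcripts carried over 90% of the TPM in both pups. In 4 they carried under 75% in both (Lss, Hsd17b7, Ebp and Srebf1). For Lss, transcripts with a retained intron held 49.2% in pup 2 and 49.2% in pup 1, and the coding transcript Lss-201 held 50.8% in pup 2 and 33.4% in pup 1. For Ebp, retained introns held 26.5% in pup 2 and 32.0% in pup 1. For Hsd17b7, non-coding processed transcripts held 36.7% in pup 2 and 39.4% in pup 1. With coding transcripts alone the mean of Lss was 2.85 ± 0.940 TPM (SD, n = 2), which made it the lowest of the 31. The libraries held total RNA, and how much of such signal is RNA still being processed was not tested.

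**Figure D3:**
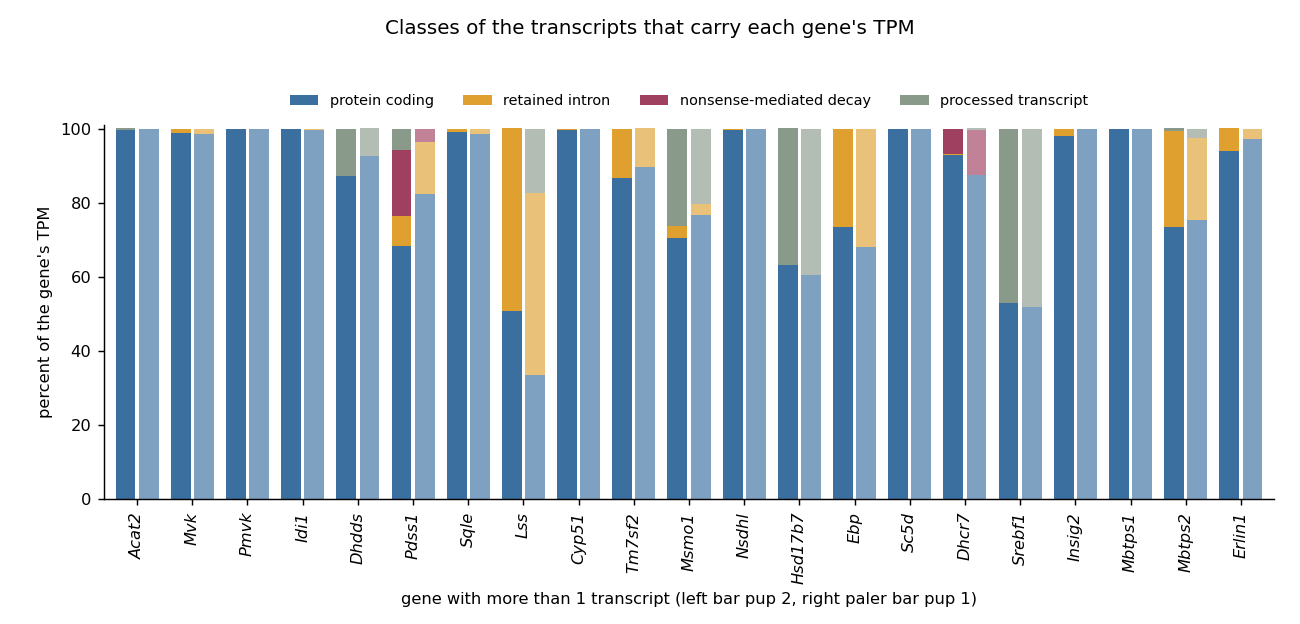
Percent of the TPM of each gene with more than 1 transcript that falls in each annotated class of transcript, with pup 2 as the left bar and pup 1 as the right, paler bar. Lss and Srebf1 have the smallest protein-coding shares, at 50.8% and 52.8% in pup 2 and 33.4% and 51.7% in pup 1.

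Insig2 and Srebf1 are known for more than 1 promoter, and the transcript tables tell which starts carried the signal. Transcript starts within 1000 bases of the next were put in 1 group. For Insig2 (chr1:121304353-121332589, minus strand, mm10), 98.01% of the TPM in pup 2 and 98.2% in pup 1 fell on transcripts that start between 121327678 and 121328024. Transcripts from the start further upstream, at 121332550 to 121332589, held 0% in pup 2 and 1.82% in pup 1. The most abundant transcript, Insig2-201, held 44.0% in pup 2 and 53.8% in pup 1, and the next coding transcript 34.4% in pup 2 and 29.2% in pup 1. Both have a coding part of 225 codons, and another RefSeq start, at 121327678, lies downstream of the start of Insig2-201 with its window not printed. The 200 bases before the upstream start and before the start of Insig2-201 are printed in that order, to set the start with little signal beside that of the leading transcript, with capitals for matches as before.
Insig2, chr1:121332590-121332789, minus strand: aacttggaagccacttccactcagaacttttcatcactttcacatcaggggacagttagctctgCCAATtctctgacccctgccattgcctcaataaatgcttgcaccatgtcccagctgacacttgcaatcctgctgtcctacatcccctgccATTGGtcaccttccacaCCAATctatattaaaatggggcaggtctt
Insig2, chr1:121328025-121328224, minus strand: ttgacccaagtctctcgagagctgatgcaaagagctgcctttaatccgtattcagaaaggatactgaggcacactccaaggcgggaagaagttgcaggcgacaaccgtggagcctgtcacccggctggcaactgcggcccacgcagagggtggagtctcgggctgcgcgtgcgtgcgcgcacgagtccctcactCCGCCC

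The upstream window of Insig2 held 3 CCAAT matches and no GGGCGG, and the window before Insig2-201 held 1 GGGCGG match and no CCAAT. For Srebf1 (chr11:60199089-60222581, minus strand, mm10), the highest shares by TPM were close. The coding transcript Srebf1-201, 4299 bases long with its start at 60220604, held 43.2% in pup 2 and 44.3% in pup 1. The processed transcript Srebf1-204, 367 bases long with its start at 60222581, held 41.7% in pup 2 and 46.0% in pup 1, so that the leading transcript differed between the pups. By counts, which are not per length, Srebf1-204 held only 4.92% in pup 2 and 5.52% in pup 1, and Srebf1-201 79.9% in pup 2 and 83.4% in pup 1. The coding transcript that starts further downstream, at 60210465, held 7.43% of the TPM in pup 2 and 6.97% in pup 1. Most of the coding signal therefore came from the start at 60220604 in both pups. Without the processed transcripts, the mean of Srebf1 was 18.1 ± 7.37 TPM (SD, n = 2) and its place among the 31 was 20 rather than 8. The 200 bases before the start near Srebf1-201 and before the downstream start are printed in that order.
Srebf1, chr11:60220628-60220827, minus strand: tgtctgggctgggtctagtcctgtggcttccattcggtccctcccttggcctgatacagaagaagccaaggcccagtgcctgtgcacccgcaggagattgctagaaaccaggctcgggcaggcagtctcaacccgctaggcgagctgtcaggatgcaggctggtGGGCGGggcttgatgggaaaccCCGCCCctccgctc
Srebf1, chr11:60210472-60210671, minus strand: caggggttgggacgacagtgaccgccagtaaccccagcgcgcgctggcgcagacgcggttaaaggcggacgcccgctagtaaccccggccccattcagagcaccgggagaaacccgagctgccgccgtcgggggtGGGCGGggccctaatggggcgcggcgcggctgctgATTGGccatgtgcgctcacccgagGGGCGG

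The first of these windows held 2 GGGCGG matches and no CCAAT, and the second held 2 GGGCGG matches and 1 CCAAT match. Neither held the sterol regulatory element consensus or an E-box, which says only that these letters are not in the window. For Sc5d, Sc5d-201 held 100% in pup 2 and 99.2% in pup 1, with its start 44 bases from that of the window printed above. For Dhcr7 (chr7:143823145-143848410, plus strand, mm10), the group of starts from 143829626 to 143830258 held 91.7% in pup 2 and 85.3% in pup 1. Dhcr7-210, a short transcript of the nonsense-mediated decay class, held 6.75% in pup 2 and 12.01% in pup 1. Its level was 9.51 TPM in pup 2 (quantifier's interval 3.54 to 15.6) and 7.68 TPM in pup 1 (3.43 to 10.9), and these intervals overlap.

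Differences between the pups were then read from TMM-scaled counts. None of the 31 members was over 2-fold higher in pup 2, against 6.03% of all 18670 genes tested, and none was over 2-fold higher in pup 1, against 9.75%. Over 1.5-fold, 2 members were higher in pup 2 (Dhcr7 and Scap), against 13.9% of all genes, and 4 were higher in pup 1 (Mvd, Idi1, Srebf2 and Sqle), against 20.1%. The members are among the more deeply counted genes. Among the 11369 genes that averaged 329 counts or more, the mean of the member with the fewest, 2.02% were over 2-fold higher in pup 2 and 5.0% in pup 1, and 8.73% and 13.97% were over 1.5-fold apart in those directions. The median absolute log2 ratio was 0.30 for the members and 0.30 for these genes, so by this measure the members lay about as far apart as genes counted as deeply. The median log2 ratio was -0.06 for the members and 0.00 for all genes tested.

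**Figure D4:**
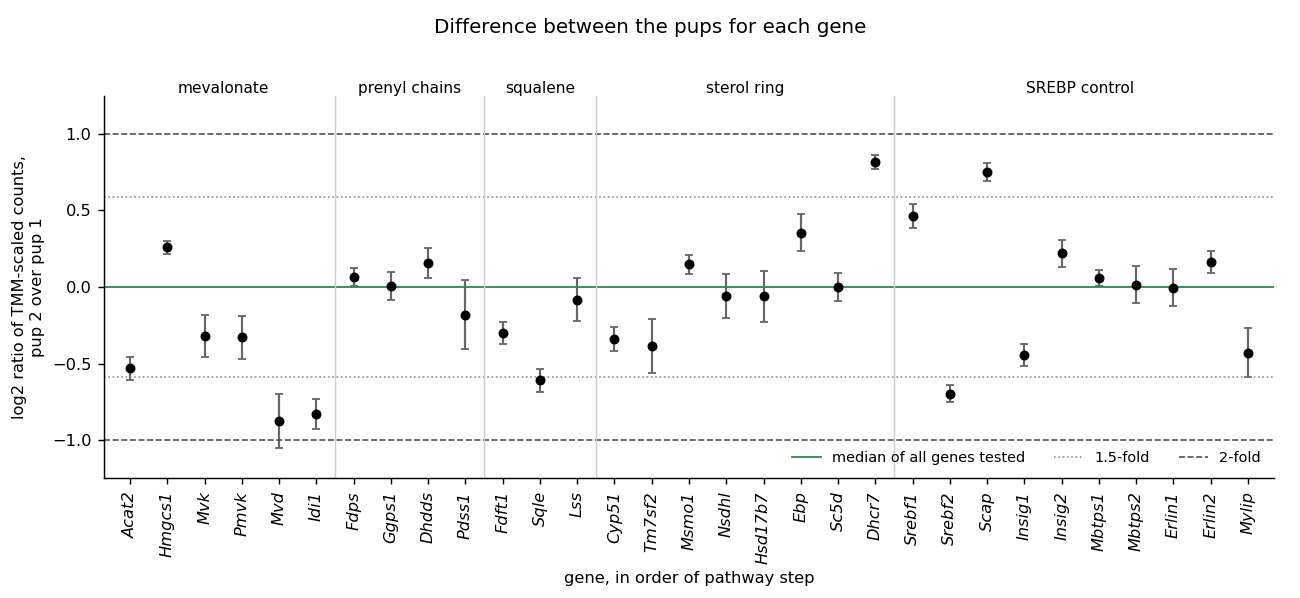
Log2 ratio of TMM-scaled counts, pup 2 over pup 1, for each gene in the order of the pathway, with 95% intervals for counting error only. Dotted and dashed lines mark 1.5-fold and 2-fold, and the green line the median of all genes tested. Dhcr7 and Scap lie above the upper dotted line, and Mvd, Idi1, Srebf2 and Sqle below the lower.

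The furthest apart towards pup 2 was Dhcr7, with 10130 scaled counts in pup 2 and 5750 in pup 1. Its log2 ratio was 0.82 (95% interval 0.77 to 0.86), and 22.1% of all genes tested were at least as far apart in either direction. Scap followed with 6335 scaled counts in pup 2 and 3755 in pup 1, a log2 ratio of 0.75 (0.70 to 0.81). Srebf1 had a log2 ratio of 0.47 (0.39 to 0.54) and Ebp of 0.36 (0.23 to 0.48). Of these 4, Dhcr7 and Ebp are among the genes that turn lanosterol into cholesterol, and Scap and Srebf1 are among the control genes.

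The furthest apart towards pup 1 was Mvd, with 404 scaled counts in pup 2 and 742 in pup 1, a log2 ratio of -0.88 (-1.05 to -0.70). Idi1, the next enzyme of the mevalonate branch, had 1315 scaled counts in pup 2 and 2337 in pup 1, a log2 ratio of -0.83 (-0.93 to -0.73). Srebf2 had 4054 scaled counts in pup 2 and 6570 in pup 1, a log2 ratio of -0.70 (-0.75 to -0.64). Sqle had 2278 scaled counts in pup 2 and 3476 in pup 1, a log2 ratio of -0.61 (-0.69 to -0.53). Acat2 (-0.53), Insig1 (-0.44) and Mylip (-0.43) were also lower in pup 2 with intervals below 0. Insig1 and Insig2 again lay on opposite sides, Insig2 at 0.22 (0.13 to 0.31), as did Srebf1 and Srebf2.

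By role, the median log2 ratio was -0.43 over the 6 mevalonate genes, of which Hmgcs1 (0.26) alone was above 0, and -0.30 over the 3 squalene genes, all below 0. It was 0.03 over the 4 prenyl genes, -0.03 over the 8 genes from lanosterol on, and 0.04 over the 10 control genes. In all, 13 members had a ratio above 0 and 18 below, beside 50.1% of all genes above 0. These signs depend on the scaling. With the deposited TPM, whose median log2 ratio over all genes tested was 0.39 rather than 0, 23 of 31 members were higher in pup 2, beside 72.2% of all genes, and 10 changed sign. With the total of Ensembl genes for scaling 18 were higher in pup 2, beside 58.0% of all genes, and with the spike-ins all 31, beside 99%. The members over 1.5-fold apart changed too. With the deposited TPM 7 were higher in pup 2 (Hmgcs1, Dhdds, Ebp, Dhcr7, Srebf1, Scap and Insig2) and 0 in pup 1, and with TPM over nuclear protein-coding genes 3 were higher in pup 2 (Dhcr7, Srebf1 and Scap) and 2 in pup 1 (Mvd and Idi1). Differences between members, such as that of Dhcr7 and Mvd, do not depend on the scaling between libraries. The quotient of their TPM was 18.4 in pup 2 and 5.96 in pup 1, a pair picked after its values were seen.

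Reads of neighbouring genes could enter some values, since the sources used here do not say how strand was treated. Exons of 7 members share bases with a gene on the other strand, and in 5 of them that gene was at 1 TPM or more in both pups. Fdft1 shares 774 of its 4227 exon bases with Ctsb, which stood at 319 TPM in pup 2 against 182 TPM in pup 1. The others of these 5 share at most 257 bases, Ggps1 with Arid4b, Pdss1 with Abi1, Cyp51 with Akap9 and Srebf1 with Rai1. Scap shares more, 985 of 7443 exon bases, with 5830462I19Rik, which was at 0.71 TPM in pup 2 against 0.21 TPM in pup 1. Lss shares 381 with 4930483K19Rik, at 0 in both. On the same strand, Tm7sf2 shares 532 bases with Vps51 and Mbtps2 shares 2867 with Yy2, and the posterior standard deviation of their counts was at most 2.24% and 2.27% of the count. Among near copies, Acat3, close to Acat2, was at 1.35 TPM in pup 2 against 1.86 TPM in pup 1, and Idi2 was listed at 0 in both.

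Further lists place the pathway among its neighbours. The 12 fatty acid genes known as targets of SREBP summed to 1273 TPM in pup 2 against 551 TPM in pup 1, with 9 higher in pup 2 and a median log2 ratio of 0.42. Only Me1, malic enzyme, was over 2-fold higher in pup 2 among them, at 270 TPM in pup 2 against 80.1 TPM in pup 1 (log2 ratio 1.37). Fads2, a fatty acid desaturase, was at 322 TPM in pup 2 against 132 TPM in pup 1 (0.91), and Acly, which makes cytosolic acetyl-CoA, at 301 TPM in pup 2 against 128 TPM in pup 1 (0.86). Picked for their sign, the 3 below 0 were the desaturase Scd1 (log2 ratio -0.92), the elongase Elovl6 (-0.68) and the synthase Fasn (-0.45). The list's other desaturases and its other elongase were above 0, Scd2 at 0.26, Fads1 at 0.41, Fads2 at 0.91 and Elovl5 at 0.87. The summed level of these 12 genes was above that of the 21 enzymes of sterol and isoprenoid synthesis in pup 2 and below it in pup 1.

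The 14 genes that use isoprenoids, in prenylation, in dolichol, ubiquinone and heme A synthesis and in tRNA modification, had a median log2 ratio of 0.20, with 13 higher in pup 2 and none over 2-fold. Fnta, a subunit shared by prenyltransferases, was at 83.6 TPM in pup 2 against 63.9 TPM in pup 1. Coq2, which attaches the ubiquinone side chain, was at 55.5 TPM in pup 2 against 44.6 TPM in pup 1, and Rabggtb, a subunit of the transferase for Rab proteins, at 39.1 TPM in pup 2 against 25.4 TPM in pup 1. The 7 genes of sterol-dependent degradation had a median of 0.19 and none was over 2-fold apart. Of these, Aup1 was at 98 TPM in pup 2 against 57.2 TPM in pup 1, and the ubiquitin ligase Rnf145 at 71.0 TPM in pup 2 against 48.5 TPM in pup 1. The oxysterol receptor Nr1h2 was at 74.5 TPM in pup 2 against 41.7 TPM in pup 1, and Nr1h3 at 6.05 TPM in pup 2 against 4.21 TPM in pup 1. The 8 cortex markers had a median log2 ratio of 1.22 with 6 over 2-fold higher in pup 2, and the 6 neuron markers one of -1.99 with all 6 over 2-fold higher in pup 1. The median was 0.53 for chromaffin cells, 0.86 for adipocytes, 2.01 for skeletal muscle and 0.19 for erythroid cells, and -0.92 for Schwann cells and -0.82 for hepatocytes. The 21 enzymes of sterol and isoprenoid synthesis had a median of -0.08, with single enzymes from -0.88 (Mvd) to 0.82 (Dhcr7). Whether they went with the cortex or the neuron markers was not tested.

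**Figure D5:**
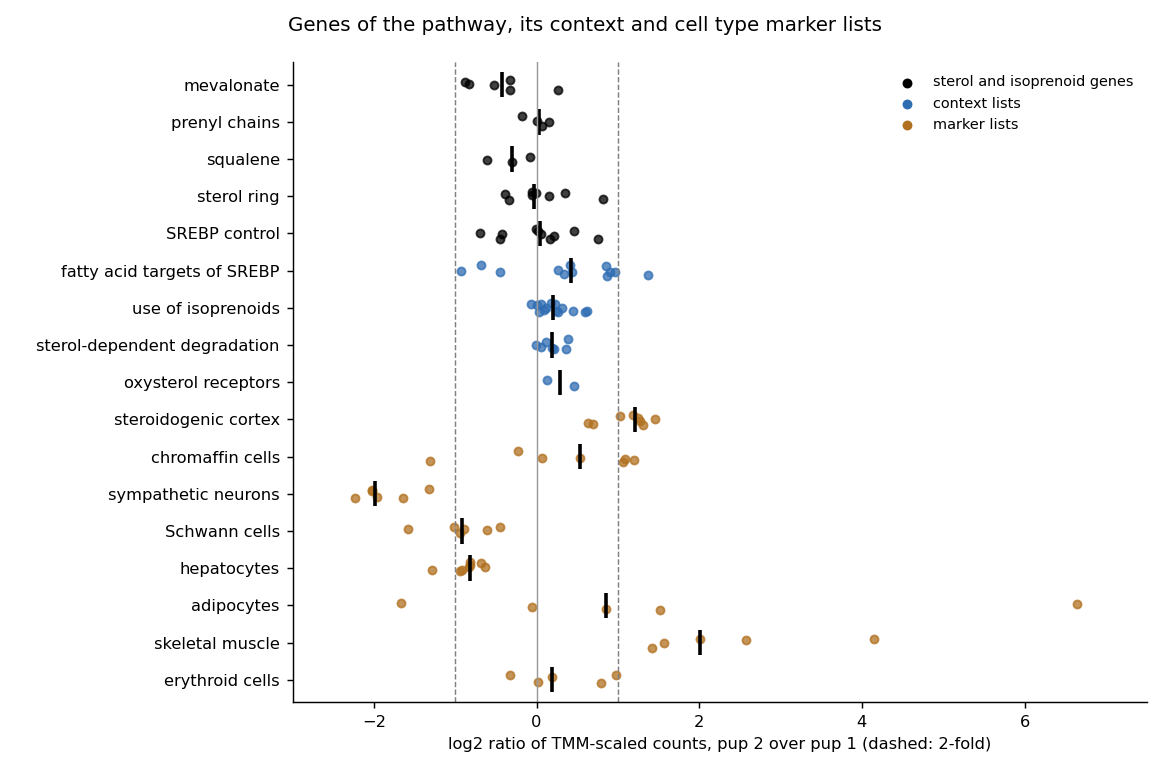
Log2 ratio of TMM-scaled counts, pup 2 over pup 1, for each gene (points) and the median (bars) of the 5 role groups of sterol and isoprenoid genes, the 4 context lists and 8 of the 9 marker lists (stomach and oesophagus is not drawn, since a gene is at 0 counts in pup 2). Dashed lines mark 2-fold. The role groups lie within the dashed lines, and cortex and neuron markers lie to opposite sides.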

How the data were processed

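Total RNA was sequenced from 2 libraries, 1 per pup, which the labels put in 1 group. The authors' tables give genes and transcripts of each library separately, on build mm10 with GENCODE M4 annotation per the text file deposited beside them. Per the file headers, the values are expected counts, posterior mean counts with their standard deviation (taken as a score), TPM with the quantifier's interval, FPKM, and in the transcript tables an isoform percent. The deposited TPM and FPKM values are per effective length. The aligner, the quantifier and the treatment of strand are not named in the sources used here, although the column names are those that RSEM writes. Rows of spike-ins (0.0025% of counts in pup 2, 0.0138% in pup 1) and numbered rows (9.59e-05% in pup 2, 2.65e-05% in pup 1) stayed out of library sizes.

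Symbols were taken by Ensembl identifier from GENCODE M21, also on mm10, and promoters from RefSeq (GRCm38.p6). Counts were rounded, scaled by TMM in edgeR 4.0.16 (R 4.3.3), and compared as log2 of pup 2 over pup 1 after adding 0.5, for genes averaging 10 counts or more. Intervals are exact binomial. "Called" means past 2-fold. No test was run. DESeq2 1.42.0 size factors, total, spike-in and TPM scaling, posterior counts, other minimums and pseudocounts, FPKM and a trend on length and GC content were alternatives. Members without exons shared across strands, protein-coding transcripts alone, and a fold of 1.5 under other scalings were chosen after seeing the data. The ratio script was tested on simulated counts. The members and all lists were chosen with earlier results of these data known. The rule for named genes took all 31 members, the 3 highest genes of each context list, the leading transcripts, and overlapping or near-identical genes, of which some are not reported here. Markers, pairs of unrelated members, Srebf1-204 by counts and Dhcr7-210 were added after their values were seen. The remaining tools were matplotlib 3.10.9, scipy 1.17.1, numpy 2.4.6, pandas 2.3.3 and python 3.11.15. Since both libraries come from 1 pregnant animal, the SD measures only the spread between these 2 pups.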

Additional observations from a re-analysis of the deposited data

How the results depend on the processing

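The median log2 ratio of the 31 members, -0.06 with TMM, followed the scaling. It was -0.03908 with DESeq2 size factors, 0.05368 with the total of Ensembl genes, 0.1345 and 0.3317 with TPM over nuclear protein-coding genes and with the deposited TPM, and 2.511 with the 1022 spike-in counts of pup 2 and 5717 of pup 1. The median over all genes tested moved alike, to 0.02, 0.11, 0.20, 0.39 and 2.56. The members' median was -0.07367 with the trend on length and GC content removed, and -0.03052 without members that share exon bases with a gene on the other strand. No member was over 2-fold apart except under spike-in scaling (31 higher in pup 2) and with the deposited TPM (2 higher in pup 2, Dhcr7 and Scap). At a fold of 1.5 there were 2 higher in pup 2 and 4 higher in pup 1 with TMM, 7 and 0 with the deposited TPM, 3 and 2 with TPM over nuclear protein-coding genes, 2 and 3 with the total, and 31 and 0 with the spike-ins. Sqle and Srebf2 were no longer over 1.5-fold with either TPM, and Mvd and Idi1 also not with the deposited TPM. Over nuclear protein-coding genes the mean summed TPM was 1001 for the enzymes (698 as reported) and 363 for the control genes (253 as reported). With protein-coding transcripts alone it was 650 and 233. The median of the sympathetic neuron markers, -1.99, changed sign to 0.5774 under spike-in scaling. DESeq2 size factors, posterior counts, a pseudocount of 5 and the removed trend left both counts at a fold of 1.5 as they were, and the shorter promoter window kept each motif count within 1.5 times. Leaving out a pup leaves the value of the other, as given. No paired analysis was possible because both libraries belong to 1 group. Depth limits little here, since the member with the fewest averaged 329 counts. The spread between 2 pups limits more.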
